A study of Homo sapiens with 3 samples.

Results

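MGMT, ALKBH1, ALKBH2 and ALKBH3, the human genes whose enzymes reverse base alkylation directly, were followed in CAL27 cells and in a pair of drug-resistant derivatives. The members were chosen by gene name, with earlier results of these libraries known, above all the very low MGMT values in the resistant lines. All 4 were found among the 19220 genes of the count table, and all 4 also averaged 10 or more counts per library, as did 13676 genes in all, the tested genes. MGMT passed that filter through its counts in CAL27 alone.

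CAL27 is a human oral squamous cell carcinoma (OSCC) line. The parental line, with the genotype given as WT, was grown without drug. CAL27/5FU cells were a 5-fluorouracil (5FU) resistant derivative kept in 10 μM 5FU, raised by exposure to rising 5FU concentrations, and CAL27/OXA cells were an oxaliplatin (OXA) resistant derivative kept in 10 μM OXA, whose derivation is not given in the sources used here. All 3 shared high-glucose DMEM with fetal bovine serum, and the resistant lines differ from the parent both in their history of selection and in the drug in the medium, which cannot be told apart here. Whether a resistant line descends from 1 clone is not stated. RNA-seq gave 1 library per line used here, so nothing below was checked against a replicate, and p-values are not given. The deposited tables also hold 3 columns that look, by their names, like second libraries of these lines, but no sample description used here covers them, and they were set aside. Intervals are exact 95% intervals on counts, Poisson for a level and Clopper-Pearson for a ratio of 2 libraries, and they and the floor of 3 counts cover counting error only.

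Most DNA repair removes a damaged base or stretch of strand and fills the gap, whereas direct reversal takes the unwanted chemical group off and leaves the base in place. MGMT moves an alkyl group from the oxygen of guanine to a cysteine of its own and is used up in doing so. The ALKBH enzymes are iron- and 2-oxoglutarate-dependent dioxygenases that oxidise methyl groups on ring nitrogens of adenine and cytosine. MGMT is best known in tumours for silencing through methylation of its promoter, which makes cells sensitive to methylating drugs. 5FU, an antimetabolite, and oxaliplatin, which forms platinum adducts, do not act chiefly through the lesions that these enzymes reverse.

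The sequences before the gene starts of MGMT and ALKBH2 are shown because these were the members past 2-fold in both resistant lines. RefSeq promoter sequences (GRCh38.p14) were matched by symbol for all 4 members. The stretches printed run from 250 bases before the RefSeq start to the base before the gene start in GENCODE 29, written in the direction of transcription, with every CpG dinucleotide in capitals. The MGMT stretch lies at chr10:129466991-129467183 on the plus strand and holds 28 CpG in 193 bases. The ALKBH2 stretch lies at chr12:109093632-109093722 on the minus strand and holds 5 CpG in 91 bases.
MGMT: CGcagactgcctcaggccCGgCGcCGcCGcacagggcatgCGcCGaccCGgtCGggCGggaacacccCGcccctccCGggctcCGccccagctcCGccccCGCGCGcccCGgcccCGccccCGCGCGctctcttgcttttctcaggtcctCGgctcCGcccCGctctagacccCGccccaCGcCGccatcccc
ALKBH2: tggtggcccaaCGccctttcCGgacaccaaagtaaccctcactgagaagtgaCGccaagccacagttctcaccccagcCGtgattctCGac

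Over the full 250 bases before the RefSeq start, MGMT had 36 CpG and a GC content of 80.4%, and 92.4% of the 10648 tested genes with a promoter sequence had fewer CpG. ALKBH1, ALKBH2 and ALKBH3 had 18, 19 and 18 CpG, close to the median of 20 over these promoters. The GC box, searched as GGGCGG and its reverse complement CCGCCC with overlaps counted, occurred 8 times before MGMT, and 1.13% of the promoters held as many. It occurred once before ALKBH2 and was not found in the windows of ALKBH1 and ALKBH3, whereas 66.0% of the promoters held at least 1. These matches describe the reference sequence. Methylation was not measured in these libraries.

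The CAL27 library held 41786182 counts, that of CAL27/5FU 37297713 and that of CAL27/OXA 43455488. Counts were scaled with TMM factors and are given as CPM (counts divided by the scaled library size), where 1 count stood for 0.0225 to 0.0257 CPM. Of 6 squamous epithelial markers, none was at 0 in any library, but KRT5, KRT14 and KRT17 were more than 2-fold lower in both resistant lines, TP63 was so in CAL27/5FU alone (log2 ratios of -1.28 and 0.13), and the summed FPKM (fragments scaled to gene length and library size) of the 6 was 5586 in the parent, 1295 in CAL27/5FU and 1556 in CAL27/OXA. CDH1 and EPCAM, which mark epithelial cells in general, were within 2-fold in both. Of 9 markers of other cell types, the summed FPKM was 47.8, 33.6 and 69.4 in the same order, most of it from CD68. The leukocyte marker PTPRC had 2, 0 and 0 counts. PDGFRA, a fibroblast marker among the 9, went the other way, at 0 FPKM in the parent alone, and was not among the tested genes. Past 2-fold among the 5 tested were COL1A2, a fibroblast collagen gene, higher in both lines (90, 300 and 212 counts, log2 ratios of 1.71 and 1.03), and VWF, an endothelial marker, lower in CAL27/5FU (44, 19 and 29 counts, a log2 ratio of -1.14 that was -0.98 by total counts). COL1A1, another collagen gene of that list, went the other way and stayed within 2-fold (log2 ratios of -0.38 and -0.59). Over all tested genes, 8.46% were more than 2-fold higher and 6.72% lower in CAL27/5FU, and 6.54% and 9.28% in CAL27/OXA. The part of these markers in the MGMT result was not tested.

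MGMT had 687 counts in the parent, 0 in CAL27/5FU and 6 in CAL27/OXA. Nearly all MGMT reads thus came from the parental library, and only the parent stood apart, since the resistant libraries were both at or near 0. The level was 17.6 CPM in CAL27 (16.3 to 19.0), not detected in CAL27/5FU, where 3 counts would be 0.0766 CPM, and 0.135 CPM in CAL27/OXA (0.0496 to 0.294). Against the floor of 3 counts, MGMT was 230-fold lower in CAL27/5FU than in CAL27, a value that ran from 204 to 230 over 4 ways of scaling the libraries. The exact counting interval allowed a smaller difference, down to 187-fold lower. In CAL27/OXA it was 131-fold lower (59.7 to 357), and 119-fold lower when libraries were scaled by total counts. The 6 counts in CAL27/OXA show that some MGMT reads were assigned there, and in CAL27/5FU a lower level than the floor was not detectable at this depth.

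Among the tested genes, MGMT ranked 2 from the lowest log2 ratio in CAL27/5FU and 9 from the lowest in CAL27/OXA. These ranks describe how the gene was chosen. Of the 11353 genes with at least 100 counts in CAL27, 19 (0.167%) had at most 3 counts in CAL27/5FU. In CAL27/OXA 36 (0.317%) had at most 10 counts, and 12 genes, MGMT among them, met both limits. All of these genes were picked for their counts in CAL27, and nothing is read from the overlap. Both resistant lines were compared with the same CAL27 library. In GENCODE 29 (GRCh38), MGMT spans 300824 bases of chromosome 10, from 129467184 to 129768007 on the plus strand. An antisense gene, AL157832.2, overlaps its exons by 286 bases and is not listed in the count table, and without stated strandedness reads of the overlap cannot be assigned to a strand.

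**Figure D1:**
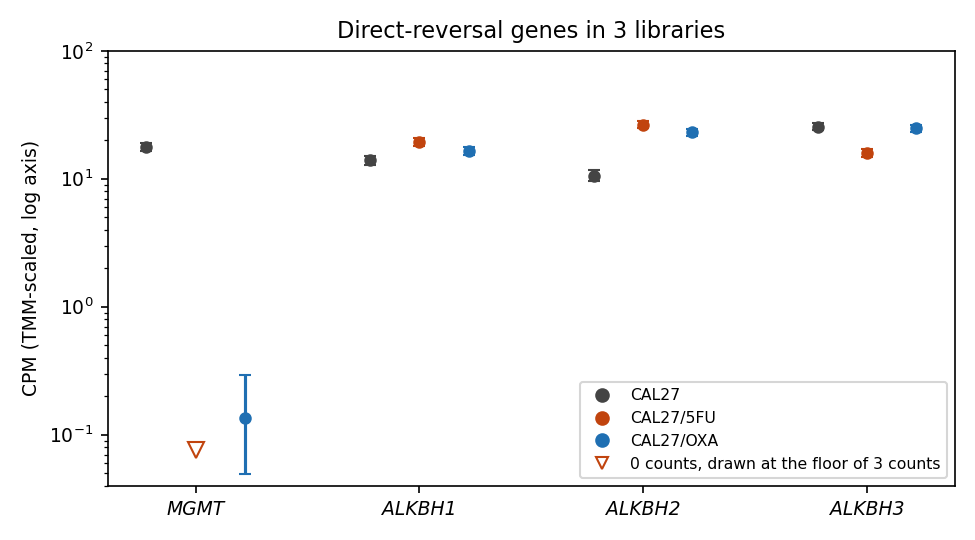
Level of each direct-reversal gene in CPM (log axis) in the 3 libraries, with the exact 95% Poisson interval as the bar and an open triangle at the floor of 3 counts for 0 counts. MGMT is at 17.6 CPM in CAL27 and at or below 0.135 CPM in both resistant lines, whereas the ALKBH genes stay between 10.6 and 26.4 CPM in every library.

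ALKBH2, which acts mainly on double-stranded DNA and works with the replication clamp PCNA, had 411 counts in the parent, 1032 in CAL27/5FU and 1026 in CAL27/OXA. Both resistant libraries were above the parental one and close to each other. In CPM the levels were 10.6 (9.56 to 11.6), 26.4 (24.8 to 28.0) and 23.1 (21.7 to 24.6). ALKBH2 was 2.499-fold higher in CAL27/5FU than in CAL27 (2.23 to 2.81), and 2.19-fold higher in CAL27/OXA (1.95 to 2.46), where the interval reached below 2-fold. Its log2 ratios were 1.32 and 1.13 and kept between 1.31 and 1.49 and between 1.12 and 1.26 over the alternatives tried. The gene spans 5444 bases of chromosome 12 (109088188 to 109093631, minus strand).

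Proliferation genes were set beside ALKBH2 because its enzyme works at replication forks. None of 6 (PCNA, MKI67, TOP2A, MCM2, CCNB1, CDK1) was past 2-fold in either line, and MCM2 came closest, at -0.90 in CAL27/5FU. Over all tested genes, 8.46% were higher and 6.72% lower in CAL27/5FU, and 6.54% and 9.28% in CAL27/OXA. The median log2 ratio of the 6 genes was -0.33 in CAL27/5FU and 0.19 in CAL27/OXA, beside medians of -0.0035 and 0.0055 over all tested genes. PCNA itself had 13144 counts in the parent, 12676 in CAL27/5FU and 20546 in CAL27/OXA, log2 ratios of -0.06 and 0.45, the former of which turned positive under scaling by total counts. Whether proliferation has a part in the higher ALKBH2 values was not tested.

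ALKBH3, which acts on single-stranded DNA and RNA together with the helicase ASCC3, was the member in which the resistant lines differed most in CPM. It had 996 counts in the parent, 623 in CAL27/5FU and 1098 in CAL27/OXA, or 25.6, 15.9 and 24.7 CPM. The 5FU library was the low one, and the intervals of CAL27 (24.0 to 27.2) and CAL27/OXA (23.3 to 26.2) overlapped. ALKBH3 was 1.61-fold lower in CAL27/5FU than in CAL27 (1.45 to 1.78), a log2 ratio of -0.68 that ranged from -0.68 to -0.48 over the alternatives. In CAL27/OXA the log2 ratio was -0.05 (-0.17 to 0.08) and turned to 0.08 when total counts set the scale, or when FPKM values were used. The gene spans 39456 bases of chromosome 11 (43880811 to 43920266, plus strand), where a pseudogene, SEC14L1P1, overlaps its exons by 75 bases.

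ALKBH1, a homologue found in mitochondria and nucleus that also acts on transfer RNA, had 541 counts in the parent, 763 in CAL27/5FU and 735 in CAL27/OXA. Both resistant libraries were higher than the parental one by less than 2-fold. The levels were 13.9, 19.5 and 16.5 CPM. ALKBH1 was 1.40-fold higher in CAL27/5FU (1.26 to 1.57) and 1.19-fold higher in CAL27/OXA (1.06 to 1.33), and the sign was positive under every alternative tried. The gene spans 35617 bases of chromosome 14 (77672404 to 77708020, minus strand).

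In CAL27/5FU, ALKBH2, 1 of the 4 members, thus exceeded its CAL27 level by over 2-fold, and 1 (MGMT) fell short of it by over 2-fold, beside 8.46% of all tested genes higher and 6.72% lower. In CAL27/OXA ALKBH2 and MGMT were again past 2-fold, beside 6.54% higher and 9.28% lower. With 4 members that were chosen with these values known, nothing is read from these shares. For MGMT in both lines, and for ALKBH2 in CAL27/5FU, the whole interval was past 2-fold, as it was for 4.34% of tested genes lower and 5.48% higher in CAL27/5FU and for 6.32% lower in CAL27/OXA. In CAL27/OXA 0 members had the whole interval past 2-fold on the higher side, beside 3.85% of tested genes. Scaling by total counts kept the members' calls but shifted the balance over all genes, from 1157 higher and 919 lower to 1432 and 699 in CAL27/5FU, and from 894 and 1269 to 1100 and 1052 in CAL27/OXA.

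**Figure D2:**
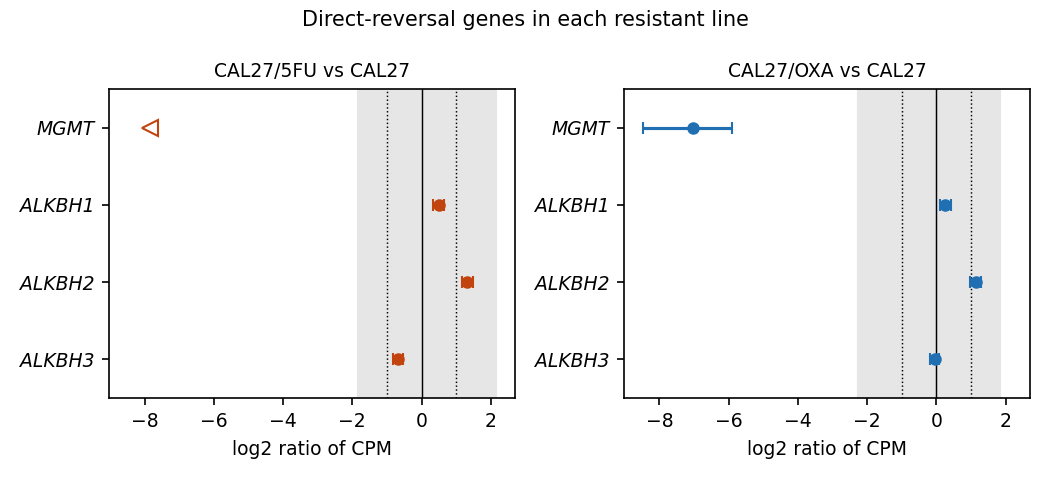
Log2 ratio of CPM (no prior count) of each resistant line to CAL27 for the 4 genes, with Clopper-Pearson 95% intervals and dotted lines at 2-fold. The grey band holds the central 95% of tested genes, whose log2 ratios were computed with a prior count of 2. The open triangle for MGMT in CAL27/5FU is the ratio against the floor of 3 counts, 230-fold lower. The exact interval there reached 187-fold lower. MGMT lies outside the band in both panels, and the ALKBH genes lie inside it.

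FPKM values, which are scaled to gene length, allow the genes to be set against each other within a library. In CAL27 the order was ALKBH3 at 15.2 FPKM (14.3 to 16.2), MGMT at 12.0 (11.1 to 12.9), ALKBH2 at 9.97 (9.03 to 11.0) and ALKBH1 at 5.01 (4.59 to 5.45). No neighbouring pair in that order had overlapping counting intervals, though ALKBH2 and MGMT lay close. In CAL27/5FU the order was ALKBH2 at 28.1, ALKBH3 at 10.6, ALKBH1 at 7.91 and MGMT at 0. In CAL27/OXA it was ALKBH2 at 23.9, ALKBH3 at 16.1, ALKBH1 at 6.54 and MGMT at 0.101. This order rests on the gene lengths behind the deposited FPKM, 986 bases for ALKBH2 and 1372 for MGMT, against 2290 and 3557 bases of merged exons in GENCODE 29. Per kilobase of merged exon, an alternative added after the data were seen, MGMT (4.96 CPM), ALKBH1 (4.88) and ALKBH2 (4.61) had overlapping intervals in the parent, below ALKBH3 (10.8). On that scale ALKBH2 was the highest in CAL27/5FU (11.5), but in CAL27/OXA ALKBH2 (10.1) and ALKBH3 (10.4) had overlapping intervals. The shares that follow depend on the same lengths.

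The share of MGMT in the summed FPKM of the 4 genes was 28.4% in the parent, 0 in CAL27/5FU and 0.216% in CAL27/OXA. That of ALKBH2 was 23.7%, 60.2% and 51.3%. The sum itself was 42.2 FPKM in the parent, 46.6 in CAL27/5FU and 46.7 in CAL27/OXA, of which the ALKBH genes gave 30.2, 46.6 and 46.6. Among all tested genes, 58.7% had a lower FPKM than MGMT in CAL27 and 3.36% did in CAL27/OXA. For ALKBH2 that share was 54.0% in the parent, 77.5% in CAL27/5FU and 74.1% in CAL27/OXA. These are levels of RNA, and enzyme levels were not measured here.

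The resistant lines were also compared directly. ALKBH3 was 1.55-fold higher in CAL27/OXA than in CAL27/5FU (1.41 to 1.72). ALKBH2 and ALKBH1 were slightly lower in CAL27/OXA, with log2 ratios of -0.19 (-0.32 to -0.06) and -0.24 (-0.38 to -0.09). MGMT had 6 counts against 0. The fitted log2 ratio of 1.91 counted MGMT as the 1 member past 2-fold, beside 4.18% of tested genes higher and 8.38% lower. Against the floor of 3 counts, however, MGMT was 1.76-fold higher, and the lower end of the counting interval was 1.04-fold. With the whole interval required past 2-fold, 0 members were called between these lines, beside 2.33% of tested genes higher and 5.18% lower. A 2-fold difference in MGMT between the resistant lines was therefore not shown at this depth.

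The tested genes nearest to MGMT on chromosome 10 did not share its low counts. By distance between start sites (GENCODE 29), 5 tested genes were taken before MGMT and 5 after it, and the closest were MKI67 at -1.34 Mb and GLRX3 at 0.669 Mb, so closer genes are without a tested value. In CAL27/5FU the 10 neighbours had a median log2 ratio of -0.06, from -0.77 (BNIP3) to 0.12 (ADAM12). None was past 2-fold, beside 8.46% of all tested genes higher and 6.72% lower. In CAL27/OXA the median was -0.21, from -2.28 to 0.26. There 2 neighbours were more than 2-fold lower and 0 higher, beside 9.28% of tested genes lower and 6.54% higher. With 10 neighbours, nothing is read from these counts. FANK1, at -3.57 Mb, had 203 counts in the parent, 125 in CAL27/5FU and 46 in CAL27/OXA, and JAKMIP3, at 2.64 Mb, had 160, 113 and 53, so that both were more than 2-fold lower in CAL27/OXA (log2 ratios of -2.28 and -1.74). GLRX3, the nearest, a glutaredoxin with 6201, 6612 and 7955 counts, had log2 ratios of 0.09 and 0.17.

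**Figure D3:**
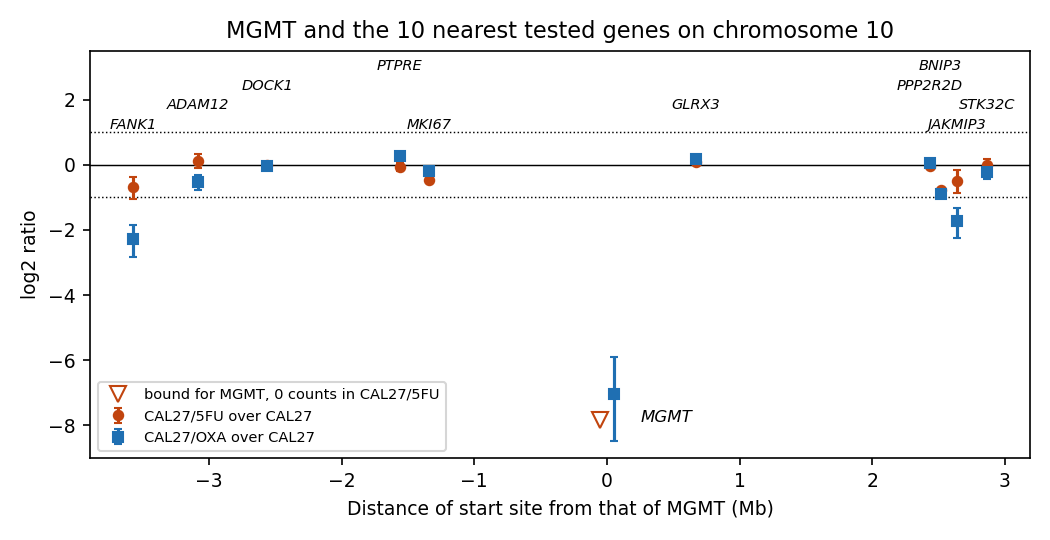
Log2 ratio to CAL27 (for MGMT without a prior count) of MGMT and the 5 nearest tested genes on each side. The ratio is drawn against the distance of their start sites from that of MGMT in Mb. CAL27/5FU is shown as circles and CAL27/OXA as squares, with 95% intervals and dotted lines at 2-fold. MGMT lies near -7 and below, whereas the neighbours lie between -2.28 and 0.26.

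The neighbours of the other members were added after the data were seen. Around ALKBH2, the 5 nearest tested genes on each side had median log2 ratios of -0.33 in CAL27/5FU and -0.07 in CAL27/OXA. None was more than 2-fold higher and 2 were lower in each line. The shares of all tested genes were 8.46% higher and 6.72% lower in CAL27/5FU, and 6.54% and 9.28% in CAL27/OXA. With 10 genes on each side the medians turned to 0.07 and 0.14, with 1 higher and 4 lower in each line. The gene next to ALKBH2, UNG, starts 3943 bases away on the opposite strand and encodes the glycosylase that removes uracil, and fluorouracil, from DNA. UNG had 2376 counts in the parent, 2685 in CAL27/5FU and 3536 in CAL27/OXA, log2 ratios of 0.17 (0.09 to 0.25) and 0.38 (0.31 to 0.46). ACACB and MVK, on the same side, were lower in both lines, at -1.57 and -2.25 in CAL27/5FU and -1.31 and -1.43 in CAL27/OXA. SLIRP starts 51 bases from ALKBH1 on the opposite strand and had log2 ratios of -0.05, which turned positive by total counts, and 0.15. Around ALKBH3 the median was -0.07 in CAL27/5FU and -0.01 in CAL27/OXA, and around ALKBH1 it was -0.04 and -0.28. With 10 genes on each side these medians were -0.04 and 0.36 around ALKBH3, and 0.02 and -0.23 around ALKBH1.

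The other AlkB homologues, none of which is known chiefly as a DNA direct-reversal enzyme, were within 2-fold of CAL27 in both lines (0 of 6 past 2-fold, against 8.46% of tested genes higher and 6.72% lower in CAL27/5FU and 6.54% and 9.28% in CAL27/OXA), with medians of -0.04 in CAL27/5FU, positive by total counts, and 0.14 in CAL27/OXA. ALKBH8, which modifies the wobble base of transfer RNA, came closest, with 227 counts in the parent, 448 in CAL27/5FU and 456 in CAL27/OXA and log2 ratios of 0.97 and 0.81, and it passed 2-fold in CAL27/5FU by total counts (1.14) and by upper quartile (1.01). FTO, an RNA demethylase, had 0.17 and 0.66. ALKBH5, the other demethylase of adenine in mRNA, had -0.29 and -0.48, and ALKBH6 had -0.47 and -0.37. The 3 genes of the ALKBH3 partner complex were also within 2-fold: ASCC3 had 0.08 and 0.27, ASCC2 -0.25 and 0.09, and ASCC1 -0.32 and -0.48.

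Genes of other DNA repair pathways were counted against the same shares of all tested genes, from which lists this short would hold few genes past 2-fold. Those shares were 8.46% higher and 6.72% lower in CAL27/5FU, and 6.54% and 9.28% in CAL27/OXA. Of 10 genes of base excision repair, 0 were past 2-fold in either line, with medians of 0.0074 and 0.11. LIG1, the replicative DNA ligase, was the lowest in CAL27/5FU, with 2578 counts in the parent, 1482 in CAL27/5FU and 2859 in CAL27/OXA, a log2 ratio of -0.80 in CAL27/5FU. MPG, the glycosylase that removes alkylated purines, had 2192, 2297 and 2331 counts. Of 8 genes of mismatch repair, 0 were past 2-fold, with medians of 0.29 and 0.30. That pathway acts on the mispairs left where MGMT has not acted. MSH6 had 4680, 6206 and 8129 counts, log2 ratios of 0.40 and 0.61.

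**Figure D4:**
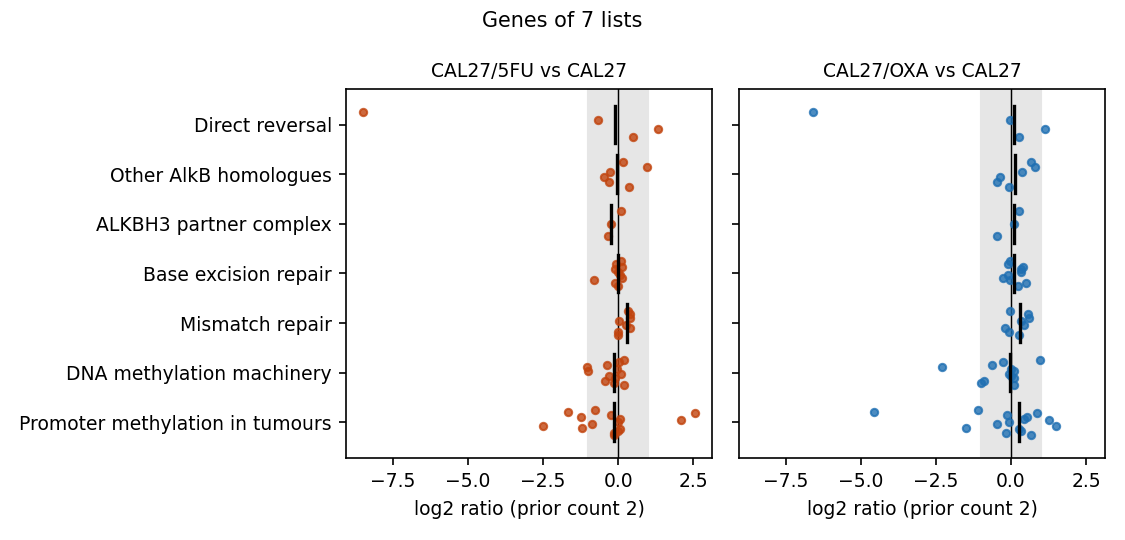
Log2 ratio to CAL27 (prior count of 2) of the tested genes of 7 lists, with 1 point per gene, a black bar at each median and a grey band within 2-fold. The base excision and mismatch repair genes all lie within the band in both panels, and MGMT, at -8.50 and -6.59, is the lowest point of each.

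Because MGMT is known for promoter methylation, the genes that write, read and remove DNA methylation were also counted. Of 12 tested, 2 in each line were lower by over 2-fold and 0 were higher by as much, beside 6.72% of all tested genes lower in CAL27/5FU and 9.28% in CAL27/OXA. These counts depended on the scaling, since by total counts 0 were lower in CAL27/5FU, and 1 was lower and 1 (UHRF1) higher in CAL27/OXA. TET1, which oxidises methylcytosine on the way to its removal, was lower in both, with 300 counts in the parent, 145 in CAL27/5FU and 68 in CAL27/OXA and log2 ratios of -1.05 and -2.29. MBD4, a glycosylase that binds methylated CpG, was the other in CAL27/5FU (-1.02), and DNMT3A, a methyltransferase, the other in CAL27/OXA (-1.02). UHRF1, which guides maintenance methylation, had 5082, 5913 and 11231 counts, log2 ratios of 0.21 and 0.95, and DNMT1, the maintenance methyltransferase, had 10700, 12398 and 13042, log2 ratios of 0.21 and 0.10. The medians of the list, -0.12 and -0.03, were positive by total counts, a scaling that moved the median of all tested genes to 0.17 and 0.14.

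A list of 19 genes known for promoter methylation in tumours had 15 tested members, without MGMT. Past 2-fold in CAL27/5FU, 2 were higher and 4 lower, with a median of -0.14 that turned positive by total counts, and in CAL27/OXA 2 were higher and 3 lower (2 lower by total counts), with a median of 0.25. The shares over all tested genes were 8.46% higher and 6.72% lower in CAL27/5FU, and 6.54% and 9.28% in CAL27/OXA. CDKN2B, a cyclin-dependent kinase inhibitor gene, was lower in both, with 1405, 616 and 566 counts and log2 ratios of -1.19 and -1.50. TP73, a p53 family gene, had 1149, 671 and 604 counts, log2 ratios of -0.78 and -1.11. THBS1, which encodes thrombospondin, had 2.57 and 0.85, and DKK3, which encodes a secreted WNT modulator, had 1391, 245 and 4485 counts, lower in CAL27/5FU and higher in CAL27/OXA. No tested member of this list was at 0 counts in a resistant line, and the lowest was TIMP3, named after its values were seen, with 84, 25 and 2 counts.

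The genes whose pattern was most like that of MGMT over the 3 libraries were found by the distance between log2 CPM profiles, each centred on its own mean, among the 11540 genes averaging 100 or more counts. They were SLC6A11, a GABA transporter gene (364 counts in the parent, 1 in CAL27/5FU and 4 in CAL27/OXA, distance 1.09), SPRR1B (331, 1 and 18 counts, distance 1.71), CCDC155 (906, 0 and 0 counts, distance 1.74), KLK9 (920, 10 and 49 counts, distance 1.81) and KRT13 (498, 7 and 13 counts, distance 1.90). SPRR1B and KRT13 encode proteins of differentiating squamous epithelium, and KLK9 a kallikrein peptidase. With 3 libraries the likeness rests on 3 values per gene.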

How the data were processed

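Total RNA of 3 CAL27 lines was sequenced on an Illumina platform, by Novogene per the study's methods, which cover CAL27 and CAL27/5FU. The submitters' processing notes name CASAVA 1.8, HISAT2 2.0.5 and GRCh38. The counting tool, annotation and strandedness are not given in the sources used here. The authors deposited raw read counts by gene symbol for 19220 genes and FPKM for 19225. For the 14367 genes with counts in all 3 libraries, both tables gave 1 gene length within 0.1% for 100% of genes. Each table has a further 3 columns of per-sample values, second libraries of these lines by name, which no sample label here covers and which were not used. With them a replicate test might be possible.

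Counts were scaled with TMM factors (edgeR 4.0.16, R 4.3.3) and turned into log2 CPM with a prior count of 2. Tested genes averaged at least 10 counts, and those past 2-fold were counted. The study's further criterion, an adjusted p from DESeq2, needs replicates. Intervals were computed with scipy 1.17.1 and the ratio step was tested on simulated data. Folds and CPM use counts without a prior, log2 ratios the prior. A library with at most 3 counts gives a fold against the floor of 3 counts, which is not a limit of the counting interval. Symbols were matched to GENCODE 29 for 18769 genes. Of the tested genes 13392 were matched, and only these could be neighbours.

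The members and gene lists were chosen with earlier results of these data known. Apart from the members, the genes named are up to 4 per list with the largest log2 ratios averaging at least 100 counts, the neighbours of MGMT and the 5 genes most like it. UNG, SLIRP, ACACB, MVK, MPG, DNMT1, CDH1, EPCAM, PTPRC, PDGFRA, VWF, ALKBH7, LIG3 and TIMP3 were named after their values were seen. Some genes of the lists are not reported here by name.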

Additional observations from a re-analysis of the deposited data

Results flagged for a closer look

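With 1 library per line, the direct-reversal genes and the up to 4 genes named by rule per list were searched, and genes were noted here when their ratios to CAL27 had opposite signs in the resistant lines, with both counting intervals leaving out 0 and both signs kept under 4 scalings. The difference between the lines was not tested, and both ratios share the CAL27 library. None of the 4 direct-reversal genes was among them. The log2 ratio of CAL27/OXA to CAL27/5FU was 4.001 for DKK3, 1.41 for TP63, 1.33 for MCM2, 1.28 for CD68, 1.11 for MBD4, 0.71 for CDK1 and 0.34 for ASCC2, which were all lower than CAL27 in CAL27/5FU and higher in CAL27/OXA. Among the genes searched, MLH3 went the other way, with a log2 ratio of -0.60 between the lines. Other genes met the same conditions outside the set searched, among them ALKBH7 (-0.26 in CAL27/5FU and 0.35 in CAL27/OXA) and LIG3 (0.12 and -0.27). MBD4, the glycosylase that binds methylated CpG, had 2233 counts in the parent, 1106 in CAL27/5FU and 2712 in CAL27/OXA.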

How the results depend on the processing

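MGMT stayed more than 2-fold lower and ALKBH2 more than 2-fold higher in both resistant lines under every alternative of scaling, filter, prior count and FPKM pseudocount. With a threshold of 4-fold, 0 members were higher in CAL27/5FU, in CAL27/OXA or between the resistant lines. With the whole interval required past 2-fold, 0 members were higher in CAL27/OXA or between the lines, and with FPKM values and a pseudocount of 1 again 0 between the lines. The fitted log2 ratio of MGMT ran from -10.5 to -3.70 in CAL27/5FU, from -6.90 to -3.56 in CAL27/OXA and from 0.14 to 3.59 between the lines, following the constant added to its counts of 0 and 6. Of 84 recomputed log2 ratios of members, 73 stayed within their counting interval and 11 moved beyond it.

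Counts over all genes are given as higher and lower. With every gene that had a count they were 1899 and 1555 in CAL27/5FU, 1348 and 1925 in CAL27/OXA and 981 and 1861 between the lines, against 1157 and 919, 894 and 1269, and 571 and 1146. On FPKM, the pseudocount of 1 gave 503 and 311, 368 and 481, and 165 and 437. A 4-fold threshold gave 404 and 286, 296 and 412, and 167 and 352. The whole interval past 2-fold left 749 and 593 in CAL27/5FU, 526 and 864 in CAL27/OXA, and 319 and 709 between the lines. A mean of at least 50 counts left 760 and 655 in CAL27/5FU, 608 and 951 in CAL27/OXA, and 369 and 794 between the lines. With 10 neighbours of MGMT on each side in place of 5, the medians were -0.03 in CAL27/5FU and -0.17 in CAL27/OXA. No paired analysis was possible because each line has 1 library here, so that no library could be left out either. Counting error limits MGMT in the resistant lines, and spread between cultures is unknown for every gene.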
